A study of Mus musculus with 14 samples.

Results

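Transcripts of the nuclear genes of mitochondrial complex I were followed in β-cells and whole islets of the mouse pancreas by RNA sequencing. Members were all genes whose symbol starts with Nduf, without the gene marked as a pseudogene by the ending -ps. These are 49 of the 37310 Ensembl genes shared by the 3 deposited count tables. By the textbook structure of the enzyme they comprise 10 genes of the N module, 6 of the Q module, 9 of the proximal and 10 of the distal membrane arm, the acyl carrier Ndufab1, 8 assembly factors, and Ndufa4 and Ndufa4l2, whose names carry the prefix but whose products are not counted as complex I subunits. The remaining 3, Ndufa11b, Ndufb4c and Ndufs6b, are copies of other members with no assigned role, and RefSeq lists Ndufa11b and Ndufs6b as pseudogenes.

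The series has 14 libraries in 6 groups, read as whole numbers of reads per gene. Wild-type β-cells came from adults at postnatal day 45 (n = 3) and neonates at day 6 (n = 3). Whole islets labelled TSC1 KO (n = 2) and their controls, with the prefix RC (n = 2), came from mice at 8 weeks, and the series' design places the knockout in β-cells. Whole islets labelled Db (n = 2) and their controls, with the prefix BKS (n = 2), came from mice at 4 weeks. The strain is given as C57BL/6 for every library. Neither the meaning of RC, the Cre driver, the Db allele, the number of animals in a library nor how the β-cells were obtained is given in the sources used here. Since separate animals are not stated, a p-value sets a difference against the spread of these libraries alone, and that spread may be technical.

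Complex I is the largest enzyme of the respiratory chain: it passes electrons from NADH to ubiquinone and pumps protons across the inner mitochondrial membrane. Its N module binds NADH and holds the flavin, its Q module carries electrons on to ubiquinone, and its membrane arm moves the protons. The core of the membrane arm is encoded by the mitochondrial genome and all other subunits by nuclear genes, and assembly factors help to build the enzyme without staying in it. In β-cells respiration couples glucose to ATP and so to insulin release.

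Gene counts per library ranged from 3507929 to 17688772, the lowest in islets labelled TSC1 KO. Tsc1 itself did not separate the groups it should define. It had 31.0 to 34.5 CPM (read counts scaled by library total with TMM factors) in islets labelled TSC1 KO and 25.1 to 54.1 CPM in RC control islets (log2 change -0.28 ± 0.38 SE, edgeR quasi-likelihood adjusted p = 0.638). A count over the whole gene can include exons that a deletion leaves and reads of other islet cells, so the group is called by its label throughout. In bulk samples fewer cells of a type and less RNA per cell cannot be told apart.

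Before any scaling, complex I genes took 0.130%, 0.152% and 0.151% of gene counts in adult β-cells and 0.152%, 0.108% and 0.114% in neonatal ones. They took 0.119% and 0.108% in islets labelled TSC1 KO, against 0.201% and 0.176% in RC control islets. They took 0.169% and 0.179% in Db islets, against 0.110% and 0.0835% in BKS control islets. The share was thus lower in both libraries labelled TSC1 KO and higher in both Db libraries than in their own controls, while adult and neonatal libraries overlapped. With the mitochondrially encoded genes and both insulin genes taken out of the totals, the means were 0.203% in islets labelled TSC1 KO, against 0.299% in RC control islets, and 0.330% in Db islets, against 0.285% in BKS control islets. The difference in Db islets was therefore much smaller once insulin transcripts were left out of the total.

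Levels were compared between the 46 members with a role per kilobase of the longest coding transcript. In islets labelled TSC1 KO the highest mean level was that of Ndufa4, at 87.5 CPM per kb. In Db islets it was that of Ndufa1, a small membrane-arm subunit encoded on the X chromosome, at 234 CPM per kb. Which isoform is expressed was not measured, and a different length would move these levels.

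The first comparison asks how complex I transcripts differ between adult and neonatal β-cells. No member was called in either direction at an adjusted p under 0.05, by edgeR's quasi-likelihood test with Benjamini-Hochberg adjustment over 14304 genes, of which 6.98% were called, 3.38% higher and 3.6% lower. Of the 47 members tested, 9 had an unadjusted p under 0.05, all of them higher in adult cells, where 20.8% of all genes passed that level and 9.84% were higher. Other tools called few: DESeq2 called Ndufa3 and Ndufs6b higher (2 members, against 5.22% of all genes), and limma-voom called 0 members, against 6.19% of all genes. With trends on transcript length and GC content removed, edgeR called 1 member higher, against 3.13% of all genes. The log2 fold change was above 0 for 39 members and below 0 for 8, with a median of 0.40, against -0.03 over all genes tested. In 12 members (25.5%) every adult library lay above every neonatal one, against 14% of all genes, and in 0 members did every adult library lie below, against 13.4%. Ndufa11b and Ndufa4l2 had too few counts to be tested.

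The lowest adjusted p was that of Ndufa3, a small subunit of the proximal membrane arm, singled out here after its values were seen. Its level was 9.36, 24.6 and 10.1 CPM in adult β-cells, against 5.46, 3.36 and 3.65 CPM in neonatal β-cells (log2 change 1.82 ± 0.58 SE, edgeR adjusted p = 0.0737). All adult libraries lay above all neonatal ones, with adult replicate 2 far above the others. Ndufs6b, the copy of Ndufs6, had the highest fold change, with 2.14, 6.64 and 1.28 CPM in adult β-cells and 0.390, 0 and 0.183 CPM in neonatal β-cells (log2 4.07 ± 1.75 SE, edgeR adjusted p = 0.192). Its neonatal levels rest on a few reads, and reads may be shared with Ndufs6, which had 6.89, 10.8 and 7.28 CPM in adult and 2.93, 1.61 and 2.37 CPM in neonatal β-cells.

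At the other end stood Ndufa9, a Q-module subunit at the junction of the arms. It had 17.6, 19.4 and 13.2 CPM in adult β-cells and 32.4, 33.8 and 16.6 CPM in neonatal β-cells (log2 change -0.72 ± 0.37 SE, edgeR adjusted p = 0.292). The groups overlapped through neonatal replicate 3b.

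Neonatal libraries differed more among themselves than adult ones. Between 13 and 15 of the 49 members were over 2-fold apart in a pair of neonatal libraries, and between 5 and 7 in a pair of adult libraries. Ndufa4, now counted as a subunit of cytochrome c oxidase, had 8.03, 7.28 and 3.36 CPM in adult β-cells and 5.98, 0.336 and 0.183 CPM in neonatal β-cells (log2 change 1.52 ± 1.164 SE, edgeR adjusted p = 0.526). Ndufa1 had 19.6, 18.8 and 10.4 CPM in adult β-cells and 7.42, 4.10 and 0.243 CPM in neonatal β-cells (log2 change 2.05 ± 0.82 SE, edgeR adjusted p = 0.167). For Ndufa4 the first neonatal library stood with the adult ones, and for Ndufa1 replicate 3b was near 0.

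By role, all 10 N-module genes had a log2 fold change above 0 (median 0.42), as did 7 of 9 of the proximal arm (0.35) and 8 of 10 of the distal arm (0.44), against 3 of 6 in the Q module (0.06). Assembly factors had a median of 0.09. Of the 7 mitochondrially encoded subunits, 2 were called higher in adult cells, mt-Nd5 by 0.89 ± 0.21 SE (edgeR adjusted p = 0.0176) and mt-Nd4 by 1.29 ± 0.34 SE (edgeR adjusted p = 0.0372). Of 47 nuclear subunits of complexes II to V tested, 7 were called higher and 0 lower by edgeR (14.9%; median 0.30). β-cell markers also moved, with 5 of 8 called higher. Their summed level was 53909 to 89686 CPM in adult and 23105 to 32388 CPM in neonatal β-cells. Of 6 duct markers 3 were called lower and 3 were not called. Among the latter Cftr was above 0 (log2 1.18 ± 0.37 SE, edgeR adjusted p = 0.0624), and Sox9 and Muc1 were below 0. The part of these marker differences in the complex I values was not tested.

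**Figure D1:**
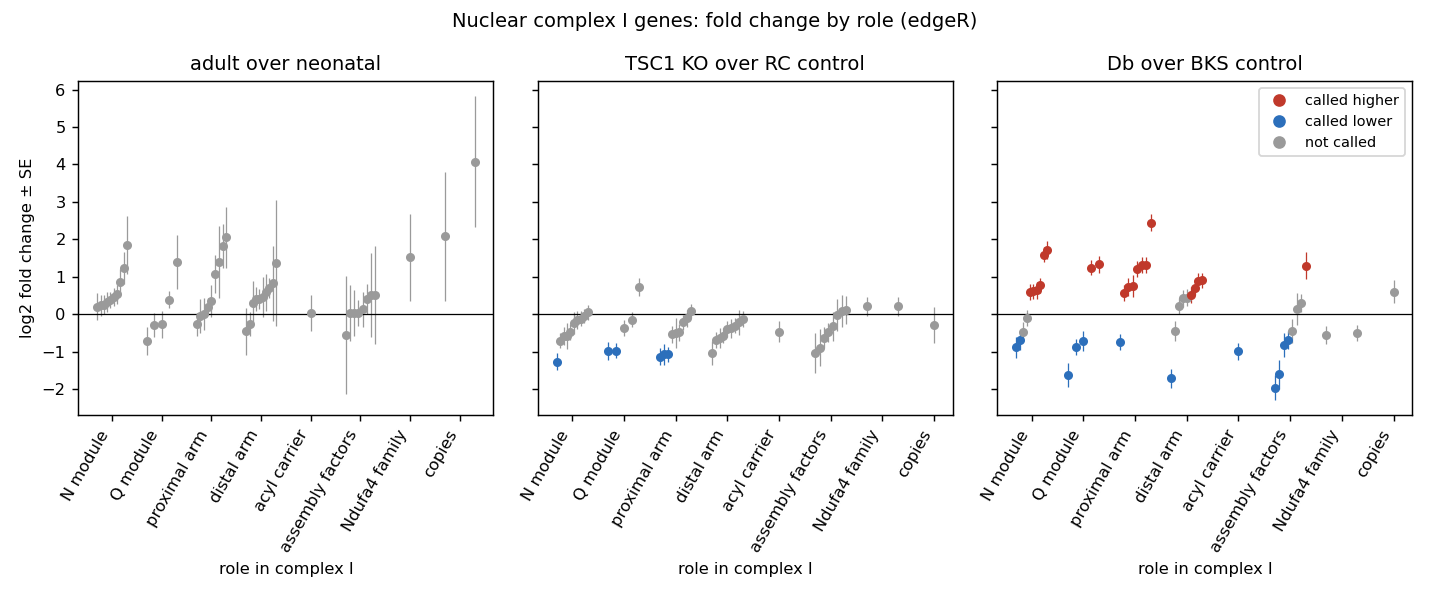
Log2 fold change (vertical axis, ± SE from edgeR) of complex I genes, grouped by role along the horizontal axis, in adult over neonatal β-cells, islets labelled TSC1 KO over RC control islets, and Db over BKS control islets. Red and blue points are genes called higher and lower at an adjusted p under 0.05, grey points are not called: 0 calls in the first panel, 6 lower among the genes plotted in the second, 20 higher and 12 lower in the third.

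The second comparison sets islets labelled TSC1 KO against RC control islets; TSC1 restrains the growth kinase complex mTORC1. Complex I transcripts were lower or not called: 7 of the 46 tested (15.2%) were called lower and 0 higher by edgeR, where 10% of all 14515 genes were called lower, 8.63% higher and 18.6% in either direction. DESeq2 called 5 lower and limma-voom 6 lower, against 8.74% and 8.57% of all genes, with 0 higher in each. At an unadjusted p under 0.05 edgeR had 12 members lower, against 18.4% of all genes, and 1 higher, against 18%. The share of members called was close to that of all genes. The direction was less even: 39 of 46 members had a log2 fold change below 0, with a median of -0.43, against a median near 0 (-0.0031) over all genes. In 26 members (56.5%) both libraries labelled TSC1 KO lay below both RC control libraries, against 34% of all genes, and in 2 members both lay above, against 33.6%. Ndufa11b, Ndufb4 and Ndufb4c had too few counts to be tested.

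The calls fell in the Q module, the N module and the proximal membrane arm. In the Q module, Ndufs7, which holds the last iron-sulphur cluster before ubiquinone, had 30.8 and 31.4 CPM in islets labelled TSC1 KO, against 66.0 and 56.2 CPM in RC control islets (log2 change -0.97 ± 0.20 SE, edgeR adjusted p = 0.0267). Ndufs3, its neighbour in the Q module, had 13.3 and 14.4 CPM in islets labelled TSC1 KO, against 25.0 and 29.4 CPM in RC control islets (-0.98 ± 0.23 SE, edgeR adjusted p = 0.0363). In both of these core subunits the libraries labelled TSC1 KO lay near each other and well below both controls.

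In the N module, Ndufs6, a zinc-binding subunit, had 11.4 and 10.4 CPM in islets labelled TSC1 KO, against 28.3 and 24.1 CPM in RC control islets (log2 change -1.26 ± 0.24 SE, edgeR adjusted p = 0.0229). It was the only 1 of the 10 N-module genes called, and its copy Ndufs6b had 7.46 and 3.01 CPM in islets labelled TSC1 KO, against 6.95 and 6.18 CPM in RC control islets. In the proximal membrane arm, Ndufa1 had 19.3 and 18.4 CPM in islets labelled TSC1 KO, against 41.1 and 38.0 CPM in RC control islets (-1.06 ± 0.20 SE, edgeR adjusted p = 0.0231). Ndufa11, which lies beside the membrane core and touches complex III in respiratory supercomplexes, had 31.5 and 25.8 CPM in islets labelled TSC1 KO, against 69.2 and 56.4 CPM in RC control islets (-1.13 ± 0.22 SE, edgeR adjusted p = 0.0245). Ndufc1, a small subunit of the same arm, had 8.86 and 7.69 CPM in islets labelled TSC1 KO, against 18.6 and 16.3 CPM in RC control islets (-1.07 ± 0.27 SE, edgeR adjusted p = 0.0431). None of these groups overlapped. The calls of Ndufc1 and Ndufs3 were lost by DESeq2 (adjusted p = 0.117 and 0.0921), with length and GC trends removed (edgeR adjusted p = 0.0515 and 0.0655) and with a replicate block. Ndufc1 was also lost by limma-voom (adjusted p = 0.0530), and Ndufs7 with the block.

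Ndufa9 again stood at an end of the range. It had 38.2 and 37.8 CPM in islets labelled TSC1 KO, against 26.9 and 19.3 CPM in RC control islets, the highest log2 fold change among the members (0.72 ± 0.24 SE, edgeR adjusted p = 0.0834), and both libraries labelled TSC1 KO lay above both controls. It passed the threshold with length and GC trends removed (log2 0.85, edgeR adjusted p = 0.0345), where 9.37% of all genes were called higher. No distal-arm gene was called as fitted here, although all 9 tested were below 0 (median -0.39); Ndufb7 was called lower with these trends removed (edgeR adjusted p = 0.0494), and Ndufb2 and Ndufb7 when scaled by library size alone, and no assembly factor was called among 8 (median -0.40). Ndufa4 had 47.5 and 59.2 CPM in islets labelled TSC1 KO, against 53.7 and 38.4 CPM in RC control islets, and Ndufa4l2 had 27.3 and 33.4 CPM in islets labelled TSC1 KO, against 30.5 and 21.6 CPM in RC control islets. Both genes overlapped between groups (log2 0.21 ± 0.25 and 0.22 ± 0.26 SE, edgeR adjusted p = 0.577 and 0.581), and both fell just below 0 when scaled by library size alone.

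Promoters of 5 members are shown because of their direction by edgeR. Of these, 4 were called lower in islets labelled TSC1 KO and higher in Db islets, Ndufs6, Ndufs7, Ndufc1 and Ndufa11. The last, Ndufa9, went the other way in fold change. The choice was made after these values were seen, among members with a motif match. Each runs from 250 bases before to 50 bases after the RefSeq start of transcription (GRCm38.p6), read on the gene's own strand: Ndufs6 at chr13:73328433-73328732 (minus strand), Ndufs7 at chr10:80249199-80249498 (plus strand), Ndufc1 at chr3:51408906-51409205 (minus strand), Ndufa11 at chr17:56717512-56717811 (plus strand) and Ndufa9 at chr6:126849095-126849394 (minus strand). Capitals mark the letters AAGATGGCG, a core form of the YY1 motif, or in Ndufa11 the letters GCGCATGCG of the NRF1 motif, whose overlapping matches on both strands are joined.
Ndufs6: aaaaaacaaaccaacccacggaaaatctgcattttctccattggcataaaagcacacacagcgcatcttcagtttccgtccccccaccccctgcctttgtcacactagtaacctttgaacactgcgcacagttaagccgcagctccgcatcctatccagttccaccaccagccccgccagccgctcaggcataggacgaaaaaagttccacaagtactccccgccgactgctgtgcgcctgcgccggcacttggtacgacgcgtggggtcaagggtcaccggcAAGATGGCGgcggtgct
Ndufs7: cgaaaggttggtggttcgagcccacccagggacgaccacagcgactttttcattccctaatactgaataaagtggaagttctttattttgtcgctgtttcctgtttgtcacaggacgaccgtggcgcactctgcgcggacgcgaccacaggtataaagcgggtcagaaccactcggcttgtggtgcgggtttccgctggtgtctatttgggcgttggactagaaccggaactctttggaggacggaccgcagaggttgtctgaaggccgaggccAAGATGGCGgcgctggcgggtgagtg
Ndufc1: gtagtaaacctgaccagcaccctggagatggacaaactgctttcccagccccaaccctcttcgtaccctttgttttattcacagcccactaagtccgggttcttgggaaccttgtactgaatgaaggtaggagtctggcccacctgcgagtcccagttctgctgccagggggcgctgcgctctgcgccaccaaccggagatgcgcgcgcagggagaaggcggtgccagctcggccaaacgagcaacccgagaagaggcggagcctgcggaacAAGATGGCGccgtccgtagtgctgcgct
Ndufa11: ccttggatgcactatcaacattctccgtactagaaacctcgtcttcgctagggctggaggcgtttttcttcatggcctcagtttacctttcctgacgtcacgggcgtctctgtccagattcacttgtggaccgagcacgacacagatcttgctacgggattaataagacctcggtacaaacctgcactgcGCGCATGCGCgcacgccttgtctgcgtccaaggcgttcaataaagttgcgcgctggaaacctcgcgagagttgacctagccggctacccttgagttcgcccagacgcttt
Ndufa9: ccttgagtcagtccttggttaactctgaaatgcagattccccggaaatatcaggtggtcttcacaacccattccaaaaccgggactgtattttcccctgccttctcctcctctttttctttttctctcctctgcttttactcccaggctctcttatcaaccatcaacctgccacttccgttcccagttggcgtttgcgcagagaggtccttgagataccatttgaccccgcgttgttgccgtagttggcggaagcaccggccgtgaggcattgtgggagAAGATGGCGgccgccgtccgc
The YY1 letters began at base 34 after the start in Ndufs6, base 25 in Ndufs7, base 23 in Ndufc1 and base 30 in Ndufa9, and the NRF1 letters at 60 bases before it in Ndufa11. Searched on both strands in the 40 members with a promoter in RefSeq's table, AAGATGGCG was found in 6 (15%), against 1.64% of 27025 genes. The shorter AAGATGGC, which it contains, was found in 8 (20%), against 3.19%. GCGCATGCG was found in 4 members (10%), against 1.95% of genes, and its core CGCATGCG in the same 4, against 2.07%. Letters of the oestrogen-related receptor motif were found in 0 members as TCAAGGTCA (0.466% of genes) and in 3 (7.5%) as AAGGTCA (5.38% of genes). The YY1 letters include the triplet ATG, and whether it is the start codon was not examined. Among members with a promoter in the table, the YY1 letters were in 3 of 18 called higher and 3 of 11 called lower in Db islets.

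Transcripts of the mitochondrial genome as a whole took 39.8% and 46.8% of gene counts in islets labelled TSC1 KO, against 12.4% and 9.05% in RC control islets. Its complex I subunits were part of this difference, and the part of RNA quality or composition in it was not tested. All 7 of these subunits were called higher, where 8.63% of all genes were, with a median log2 fold change of 2.70. mt-Nd5 had 63663 and 72560 CPM in islets labelled TSC1 KO, against 8684 and 7114 CPM in RC control islets (3.11 ± 0.46 SE, edgeR adjusted p = 0.0146). Of 10 assembly factors with other names 1 was called lower, Foxred1, an oxidoreductase needed for assembly, with 12.1 and 8.03 CPM in islets labelled TSC1 KO, against 27.2 and 29.3 CPM in RC control islets (-1.47 ± 0.27 SE, edgeR adjusted p = 0.0222). Of 47 nuclear subunits of complexes II to V tested, 4 were called lower and 0 higher by edgeR (8.51%; median -0.16).

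Cell type markers moved with these values. In islets labelled TSC1 KO 7 of 8 β-cell markers were called lower, with summed levels of 12790 to 13308 CPM against 234620 to 264910 CPM in RC control islets, and 5 of 7 tested markers of other endocrine cells were lower and 1 higher. Of the endothelial markers 2 of 5 were called higher, with sums of 2908 to 3904 CPM in islets labelled TSC1 KO, against 1815 to 1909 CPM in RC control islets. Of the duct markers 1 of 6 was called higher, and of the mesenchymal markers 0 of 5 were called by edgeR. Summed duct markers were 2062 to 2792 CPM in islets labelled TSC1 KO, against 251 to 894 CPM in RC control islets, and summed mesenchymal markers 608 to 4196 CPM in islets labelled TSC1 KO, against 251 to 509 CPM in RC control islets, the high end from replicate 2 labelled TSC1 KO. The part of these differences in the complex I values was not tested. Without either library labelled TSC1 KO, 0 members and 0 genes in all were called by edgeR, so that these fits say nothing on single members. Ndufa1 then had a log2 fold change of -1.11 without replicate 1 and -1.03 without replicate 2 labelled TSC1 KO, and the lone library left is assumed to vary like the controls.

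**Figure D2:**
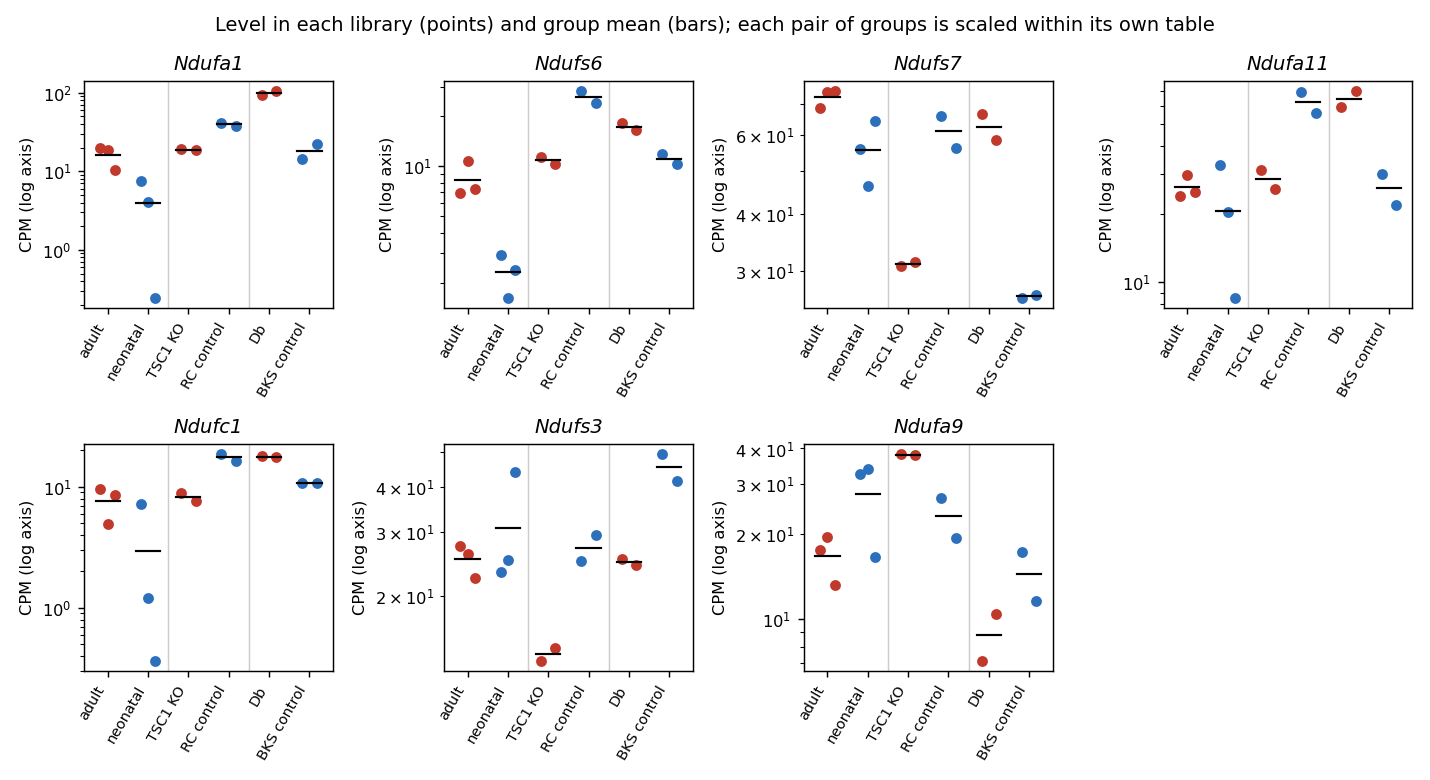
Level of 7 complex I genes in each library (CPM, vertical log axis), with a point per library and a bar at the group mean; groups run along the horizontal axis, each pair scaled within its own count table. In each gene but Ndufa9, both libraries labelled TSC1 KO lie below both RC controls, while for Ndufa9 they lie above.

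The third comparison sets Db islets against BKS control islets; db in mice usually denotes loss of the leptin receptor, and the labels name no allele. Complex I transcripts changed in both directions. Of 45 members tested, 20 were called higher and 12 lower (71.1% called) by edgeR, where 24.3% of all 14369 genes were called higher, 23.9% lower and 48.2% in either direction. Of these members, DESeq2 did not call Ndufa3, Ndufb10, Ndufs6, Ndufa9, Ndufa12, Ndufaf7 and Ndufaf8. Limma-voom did not call Ndufa3, and it called Ndufa4l2 lower. The shares of all genes called by these 2 tools are not given here. The median log2 fold change was 0.43, against -0.03 over all genes tested. In 23 members (51.1%) both Db libraries lay above both BKS control libraries, against 37.2% of all genes, and in 18 (40%) both lay below, against 37.5%. Scaled by library size alone, 22 members were higher and 4 lower, where 27.7% of all genes were higher, 10.9% lower and 38.6% either, and the median of all genes then stood at 0.29. The lower calls of Ndufa9, Ndufa10, Ndufa12, Ndufab1, Ndufaf7, Ndufaf8, Ndufs3 and Ndufs4 were lost under that scaling. With length and GC trends removed, 12 were higher and 12 lower, where 20.6% of all genes were higher, 19% lower and 39.6% either. Ndufb7, Ndufb9, Ndufb10, Ndufb11, Ndufa3, Ndufa6, Ndufa8, Ndufv1, Ndufs4 and Ndufaf7 lost their call with these trends removed. Ndufa11b, Ndufb4, Ndufb4c and Ndufs5 had too few counts to be tested.

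In the proximal membrane arm 7 of the 8 tested genes were called higher and 1 lower, with a median log2 fold change of 0.99. Ndufa1 had the largest change of any member, at 92.3 and 104 CPM in Db islets, against 14.2 and 21.9 CPM in BKS control islets (log2 change 2.44 ± 0.23 SE, a 5.44-fold difference, edgeR adjusted p = 1.43e-09). Ndufc2, a subunit at the base of the membrane arm, had 91.1 and 61.5 CPM in Db islets, against 27.6 and 33.4 CPM in BKS control islets (1.32 ± 0.22 SE, edgeR adjusted p = 1.77e-05). Ndufa13, also known as the cell death factor GRIM-19, had 141 and 118 CPM in Db islets, against 49.3 and 62.3 CPM in BKS control islets (1.21 ± 0.21 SE, edgeR adjusted p = 2.47e-05). Both Db libraries lay far above both controls in all 3 of these genes.

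Ndufa11, with the NRF1 letters in its promoter, had 59.7 and 69.9 CPM in Db islets, against 30.1 and 21.9 CPM in BKS control islets (log2 change 1.31 ± 0.21 SE, edgeR adjusted p = 1.32e-05). The other genes of the arm called higher were Ndufc1, Ndufa8 and Ndufa3, between 0.56 and 0.76. Ndufa10 was the gene of this arm called lower, with 19.9 and 17.3 CPM in Db islets, against 35.2 and 26.6 CPM in BKS control islets (-0.74 ± 0.22 SE, edgeR adjusted p = 0.00641).

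In the N module 6 of 10 genes were called higher and 2 lower. Ndufa2, a subunit with a thioredoxin-like fold, had 76.6 and 91.8 CPM in Db islets, against 32.9 and 18.2 CPM in BKS control islets (log2 change 1.71 ± 0.24 SE, edgeR adjusted p = 3.07e-06). Ndufa7 had 62.0 and 57.8 CPM in Db islets, against 18.2 and 21.4 CPM in BKS control islets (1.60 ± 0.21 SE, edgeR adjusted p = 6.18e-07). Ndufv3, Ndufs6, Ndufv1 and Ndufa6 were called higher by 0.60 to 0.78. Ndufs4, which holds the N module to the rest of the arm and whose loss models Leigh syndrome in mice, was called lower in Db islets (-0.87 ± 0.28 SE, edgeR adjusted p = 0.0109). Ndufa12 was also called lower (-0.69).

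The Q module was divided, with 2 genes called higher, 3 lower and 1 not called. Ndufs8, which holds a pair of iron-sulphur clusters, had 31.0 and 43.3 CPM in Db islets, against 15.8 and 13.6 CPM in BKS control islets (log2 change 1.33 ± 0.23 SE, edgeR adjusted p = 2.36e-05). Its neighbour Ndufs7 had 66.8 and 58.3 CPM in Db islets, against 26.1 and 26.6 CPM in BKS control islets (1.25 ± 0.20 SE, edgeR adjusted p = 1.53e-05). These core subunits lay above the controls in both Db libraries. On the other side, Ndufa5 had 2.10 and 3.01 CPM in Db islets, against 9.53 and 6.03 CPM in BKS control islets (-1.61 ± 0.32 SE, edgeR adjusted p = 0.00017).

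Ndufs3 had 25.3 and 24.3 CPM in Db islets, against 49.3 and 41.6 CPM in BKS control islets (log2 change -0.87 ± 0.20 SE, edgeR adjusted p = 0.000924). Ndufa9 had 7.13 and 10.4 CPM in Db islets, against 17.2 and 11.6 CPM in BKS control islets (-0.72 ± 0.26 SE, edgeR adjusted p = 0.0250). Both lay below the controls in each Db library, Ndufa9 by a narrow margin.

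In the distal membrane arm 4 of 9 tested genes were called higher (Ndufb7, Ndufb9, Ndufb10 and Ndufb11, by 0.51 to 0.91) and 1 lower. Ndufb9 had 42.1 and 46.6 CPM in Db islets, against 25.1 and 22.1 CPM in BKS control islets (log2 change 0.91 ± 0.21 SE, edgeR adjusted p = 0.000709), and with length and GC trends removed it was no longer called (edgeR adjusted p = 0.136). Ndufb2 had 4.87 and 4.41 CPM in Db islets, against 13.8 and 16.6 CPM in BKS control islets (-1.71 ± 0.26 SE, edgeR adjusted p = 5.39e-06), the sharpest fall among the subunits. Ndufab1, the mitochondrial acyl carrier protein that sits in complex I and also serves fatty acid synthesis, had 10.9 and 8.73 CPM in Db islets, against 17.99 and 21.1 CPM in BKS control islets (-0.99 ± 0.23 SE, edgeR adjusted p = 0.00106). Neither Ndufb2 nor Ndufab1 overlapped between groups.

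Of the assembly factors, 4 of 8 were called lower and 1 higher, with a median of -0.56. Ndufaf6, which acts early in assembly, had the lowest fold change of any member, with 2.65 and 1.45 CPM in Db islets, against 8.35 and 7.44 CPM in BKS control islets (log2 -1.95 ± 0.33 SE, edgeR adjusted p = 2.19e-05). Ndufaf1, which builds the membrane arm, had 1.44 and 1.21 CPM in Db islets, against 5.03 and 2.95 CPM in BKS control islets (-1.60 ± 0.38 SE, edgeR adjusted p = 0.00114). Ndufaf7, a mitochondrial methyltransferase, and Ndufaf8 were called lower by smaller amounts. The factor called higher was Ndufaf2, whose place in the maturing enzyme is taken by Ndufa12, with 4.98 and 3.98 CPM in Db islets, against 1.82 and 1.80 CPM in BKS control islets (1.30 ± 0.36 SE, edgeR adjusted p = 0.00422). By edgeR Ndufaf2 was thus higher and Ndufa12 lower in Db islets, while DESeq2 did not call Ndufa12.

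Ndufa4 had 16.4 and 18.2 CPM in Db islets and 23.3 and 25.7 CPM in BKS control islets (log2 change -0.50 ± 0.21 SE, edgeR adjusted p = 0.0542), and its sign turned with length and GC trends removed (0.21). Ndufa4l2 had 11.9 and 10.2 CPM in Db islets and 17.0 and 15.4 CPM in BKS control islets (-0.55 ± 0.23 SE, edgeR adjusted p = 0.0513). Both lay below the controls in each Db library without passing the threshold, but Ndufa4l2 passed it with length and GC trends removed (-0.68, edgeR adjusted p = 0.0140) and by limma-voom (adjusted p = 0.0481). Of assembly factors with other names, 4 of 10 were called higher (Ecsit, Tmem186, Timmdc1 and Dmac2, by 0.63 to 1.2) and 1 lower, Acad9 (-0.91 ± 0.28 SE, edgeR adjusted p = 0.00789). That is 50% called, close to the 48.2% of all genes. None of the 6 mitochondrially encoded subunits tested was called (0 by edgeR; median -1.17). BKS control replicate 2 stood apart there, with mt-Nd5 at 276 and 158 CPM in Db islets and 109 and 706 CPM in BKS control islets. Of 48 nuclear subunits of complexes II to V tested, 12 were called higher and 15 lower (56.2% called, against 48.2% of all genes), with a median of -0.05.

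In Db islets the direction went with the length of the longest coding transcript. Of 22 tested members whose longest coding transcript is under 1000 bases, 15 were called higher and 2 lower, with a median log2 fold change of 0.68. Of the 23 longer ones 5 were called higher and 10 lower, with a median of -0.46. Over all genes tested the medians were 0.06 for short and -0.03 for longer ones. Spearman's rho between fold change and length was -0.557 over the 45 members and -0.03 over 13855 genes, and with GC content 0.351 and 0.397. These are descriptions across genes that share the same 4 libraries, and genes are not independent replicates. The same rho with length was -0.418 over 47 members in adult over neonatal β-cells, against -0.09 over 13757 genes. It was -0.015 over 46 members in islets labelled TSC1 KO, against 0.141 over 14084 genes. In adult over neonatal β-cells the medians were 0.62 for short and 0.24 for longer members, against 0.17 and -0.04 over all genes. The longest coding transcript was chosen after lengths were seen, and which isoform is expressed was not measured. By the longest transcript of any kind, Ndufb7 (4435 bases), Ndufaf2 (2404) and Ndufa6 (1141), all called higher, would count as longer. So would Ndufa4 (1232 bases), which was not called. Removal of length trends used this other length.

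**Figure D3:**
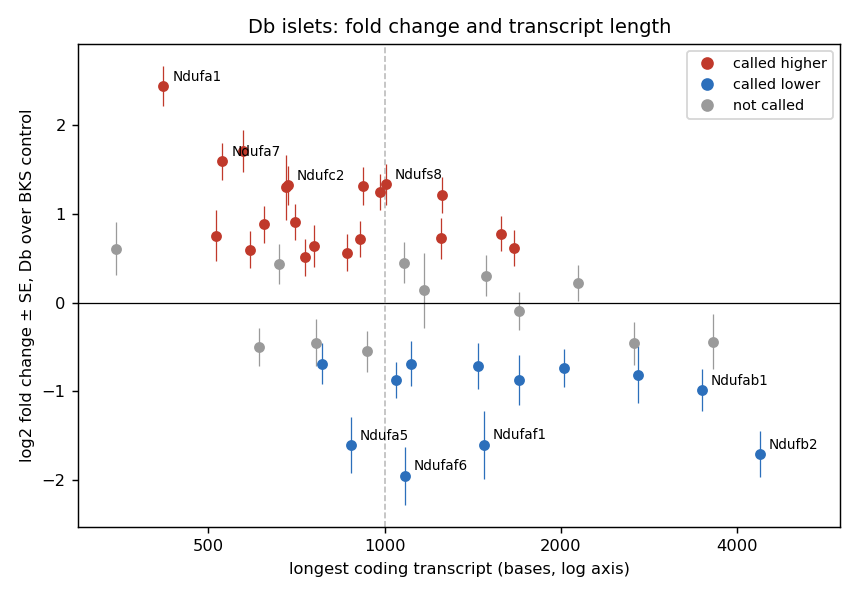
Log2 fold change in Db over BKS control islets (vertical axis, ± SE from edgeR) of complex I genes against the length of the longest coding transcript (horizontal log axis, bases), with red points called higher, blue called lower and grey not called. The dashed line marks 1000 bases: to its left 15 genes were called higher and 2 lower, to its right 5 higher and 10 lower.

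Markers of cell types differed in this comparison as well. Of 8 β-cell markers 6 were called lower and 1 higher in Db islets, with summed levels of 427450 to 494430 CPM against 599470 to 920030 CPM in BKS control islets. Summed acinar markers were 126 to 280 CPM in Db islets and 20.2 to 23.0 CPM in BKS control islets, and mesenchymal markers 471 to 509 CPM in Db islets and 166 to 263 CPM in BKS control islets. Their part in the complex I values was not tested. Under each setting that used every library, Ndufa1, Ndufa2, Ndufa7, Ndufa11, Ndufa13, Ndufc1, Ndufc2, Ndufs7, Ndufs8, Ndufv3 and Ndufaf2 stayed called higher. Ndufa5, Ndufb2, Ndufaf1 and Ndufaf6 stayed called lower. The share of all genes whose calls stayed is not given here. Fits with a library left out leave a lone one in its group, assumed to vary like the other group, and their calls are not given.

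Whether the 2 islet comparisons differ was tested directly, as the fold change in islets labelled TSC1 KO over RC control islets minus that in Db over BKS control islets, in a fit over the 8 islet libraries. Of 47 members tested, 20 differed by edgeR, where 31.8% of 15702 genes did. In 19 the effect in islets labelled TSC1 KO was lower than in Db islets, where 18.6% of genes were lower. Of these 19, 18 had a fold change below 0 in islets labelled TSC1 KO and above 0 in Db islets, whether called or not. Only Ndufa1, Ndufa11, Ndufc1, Ndufs6 and Ndufs7 among them were called both lower in islets labelled TSC1 KO and higher in Db islets. The share of all genes with such opposite signs is not given here. The gap was widest for Ndufa1, at -3.59 ± 0.34 SE (edgeR adjusted p = 3.1e-05), followed by Ndufa11 (-2.53 ± 0.32 SE, edgeR adjusted p = 0.000173), Ndufa2 (-2.38 ± 0.39 SE, edgeR adjusted p = 0.000789) and Ndufs7 (-2.31 ± 0.28 SE, edgeR adjusted p = 0.000135). For Ndufa7 and Ndufs8 the difference came with a fold change near 0 in islets labelled TSC1 KO (-0.05 and -0.14). Ndufa9 differed in the other direction (1.35 ± 0.39 SE, edgeR adjusted p = 0.0194). Ndufaf1 (1.59 ± 0.60 SE, edgeR adjusted p = 0.0598) and Ndufa5 (1.15 ± 0.42 SE, edgeR adjusted p = 0.0525) had the same direction as Ndufa9 without passing the threshold. Ndufs3 was called lower in both comparisons, and its difference was small beside its error (-0.19 ± 0.29 SE, edgeR adjusted p = 0.645).

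The groups compared here also differ in age, in prefix and in marker levels, and the comparisons come from separate tables, so what sets the effects apart cannot be told apart from these. Which members differed moved with the settings run, and the shares of all genes that differed under those settings are not given here. Ndufa9 lost its call in 5 of the settings.

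**Figure D4:**
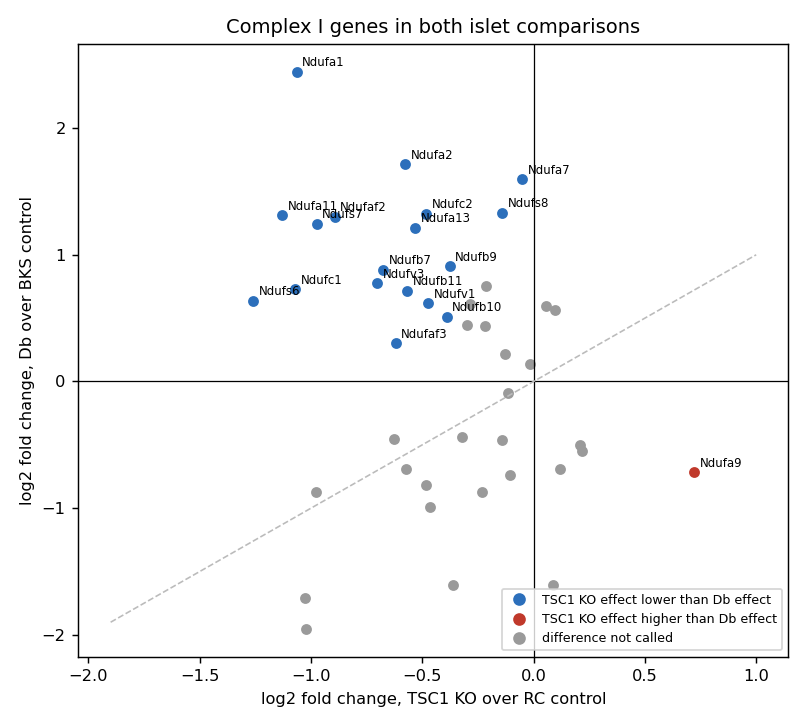
Log2 fold change in islets labelled TSC1 KO over RC control islets (horizontal axis) against that in Db over BKS control islets (vertical axis) for complex I genes tested in both; the dashed line marks equal effects. Blue and red points are genes whose effects differed by edgeR's test of the difference (18 lower and 1 higher in islets labelled TSC1 KO, among the genes plotted), with all the blue points in the upper left part of the plot.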

How the data were processed

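The members and gene lists were chosen with earlier results of these data known. The authors deposited raw counts of reads per Ensembl gene with no normalization, per the file headers, in 3 tables. Libraries were made with the SMARTer Stranded kit, per the labels' protocols. The submitters' processing notes name HTSeq 0.7.1, DESeq2 1.16.0, GSNAP and cutadapt 1.13 and the builds mm9 and NCBIM37. No strand setting for counting is given in the sources used here. Genes that overlap an antisense partner, and Ndufs6, Ndufa11 and Ndufb4, which have close copies, are therefore uncertain. Symbols came from a later annotation and matched 32620 of 37310 genes (87.43%), so no coordinates of the counts are printed.

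Groups came from the sample titles. Among the β-cell columns, 2 carry the heading of neonatal sample 3 and none that of sample 2, so these are neonatal replicates 3a and 3b. Rows that name no gene were left out of library totals. Where such rows are listed, genes took 24.5% to 44.3% of the reads. Replicates differed by 7.874 to 69.93 chi-square units per degree of freedom, so no library appeared to be deposited again. Wilson 95% intervals of a share cover counting error only, since no molecular identifiers are described.

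Fits were made separately for the 3 tables with edgeR 4.0.16 in R 4.3.3 (filterByExpr with minimum count 10 and minimum total 15, TMM, robust quasi-likelihood F test, two-sided, Benjamini-Hochberg over all genes tested, threshold 0.05), after a check on simulated counts. CPM use the TMM-scaled library total, and fold changes are log2. Alternatives used DESeq2 1.42.0, limma-voom 3.58.1, other scalings, no filter, length and GC trends removed (lowess span 0.3), a replicate block and each library left out. The trends were removed by the longest transcript of any kind, not the longest coding one. For Ndufb7 these are 4435 and 623 bases, so that setting is no check on the pattern with coding length. Values per library are given for members past the threshold (up to the 15 with the lowest adjusted p), for the highest and lowest fold change, and for Ndufa4 and Ndufa4l2. Values of Ndufa1, Ndufa3 and Ndufs6 in β-cells, Ndufs6b in the islets labelled TSC1 KO, and Ndufa9, Ndufa10 and Ndufaf2 in Db islets were added after they were seen. Of the members, 1 is not reported here, nor plotted, though it stays in the counts. Length per kilobase and the split by length use the longest coding transcript, a choice made after lengths were seen.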

Additional observations from a re-analysis of the deposited data

Results flagged for a closer look

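Effects in islets labelled TSC1 KO (over RC control islets) and in Db islets (over BKS control islets) differed for 20 complex I genes by edgeR's test of the difference. Of these, 19 are given on the log2 scale as the effect in islets labelled TSC1 KO minus the effect in Db islets. In the N module they were Ndufa2 (-2.38), Ndufs6 (-1.99), Ndufa7 (-1.73), Ndufv3 (-1.57) and Ndufv1 (-1.18). In the Q module they were Ndufs7 (-2.31), Ndufs8 (-1.56) and Ndufa9 (1.35), the last with the opposite sign among the genes past the threshold. In the proximal membrane arm they were Ndufa1 (-3.59), Ndufa11 (-2.53), Ndufc2 (-1.89), Ndufc1 (-1.88) and Ndufa13 (-1.83). In the distal membrane arm they were Ndufb7 (-1.65), Ndufb9 (-1.38), Ndufb11 (-1.37) and Ndufb10 (-0.99). Among assembly factors they were Ndufaf2 (-2.28) and Ndufaf3 (-1.01). Ndufaf3 was called neither in Db islets nor in islets labelled TSC1 KO. No group has the 4 or more libraries needed to look for a library far from the others.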

How the results depend on the processing

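In adult against neonatal β-cells, 0 members were called in the fit as reported, 3 without a filter on low counts, 2 by DESeq2 and 1 with length and GC trends removed; the cause was not tested. The median fold change there ranged from 0.27 to 0.60 with each library left out, the last without neonatal replicate 1. In islets labelled TSC1 KO the replicate block left 4 calls of 7, and leaving out a library gave 0 to 10, with 0 over all genes without either library labelled TSC1 KO, where a lone library is left. Their median was -0.68 with library size only, -0.30 with trends removed and -0.58 to -0.28 with each library left out. Ndufa4 turned to -0.0496 and Ndufa4l2 to -0.0412 with library size only; with each library left out they ranged from -0.0172 to 0.4712 and from -0.0166 to 0.4829, the lower ends without RC control replicate 2. In Db islets the calls of Ndufb10 and Ndufaf7 were lost with the replicate block, again without a share of all genes to set beside it. The median there was 0.71 with library size only and 0.21 with trends removed, where Ndufa4 turned to 0.2135. Shares of counts without mitochondrially encoded and insulin genes averaged 0.165% in adult and 0.133% in neonatal β-cells, 0.203% in islets labelled TSC1 KO, 0.299% in RC control, 0.330% in Db and 0.285% in BKS control islets. Same-numbered islet libraries did not deviate together over genes (correlations -0.0623 and -0.0559). With 2 libraries a group this cannot tell whether they were paired. For β-cells alone no paired analysis was possible because their columns share fewer than 2 certain numbers. Of 47 named gene results, 16 kept direction and side of the threshold under every alternative run. With 2 libraries a group and 3507929 counts in the smallest, members near the filter were not measurable.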
